A study of Drosophila melanogaster with 3 samples.

Results

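The nuclear genes for proteins of the mitochondrial ribosome are described here by their signal in 3 maps of chromosome contacts from Drosophila S2-DRSC cells, a line of embryonic origin. The members are the genes whose name in the deposited peak-to-feature tables starts with mRpL, for the large subunit, or mRpS, for the small subunit. They number 67 of the 12271 gene names in those tables, with 42 large subunit and 25 small subunit genes. Every gene in the tables had been paired with a peak of some bait at a false discovery rate (FDR) of at most 0.2, so genes without such a peak are not analysed here. A further gene, Rlc1, carries the symbol mRpL47 in the current RefSeq annotation but was not a member by name; its ratios were 1.99, 0.63 and 0.49 for BaitA, BaitB and BaitC.

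Mitochondria keep their own ribosomes, which make the few proteins that the mitochondrial genome encodes, core subunits of the respiratory chain and of the ATP synthase. The ribosomal RNAs come from the mitochondrial genome, while the ribosomal proteins are made in the cytosol from nuclear genes and imported. Some of these proteins have counterparts in bacterial ribosomes and keep their numbers, and others occur in mitochondrial ribosomes alone. The genes are used in nearly every cell type and lie scattered over the chromosomes.

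The maps came from circular chromosome conformation capture (4C), in which cross-linked chromatin is cut with DpnII, ligated, and amplified outward from a bait fragment by inverse PCR. The baits were insulator binding sites, stretches of DNA bound by proteins that help to fold chromosomes: BaitA on 3R (91997 to 92920), BaitB on 2L (8485115 to 8485894) and BaitC on 3R (384440 to 385252). Each bait had 1 array with the 4C product in Cy5 and unligated, DpnII-cut genomic DNA, the background, in Cy3, both from S2-DRSC cells, and the labels name no treatment, mutation or knockdown. With 1 array for each bait there was no replicate, no difference between arrays or gene groups was tested, and the SDs below are over probes within an array or over genes. DNA of this kind carries no expression values, so the cell identity could not be checked by markers.

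Each value is the mean log2 ratio of 4C product over unligated DNA of the probes within 1 kb of a gene's start sites, with the array median set to 0. Members had 34 to 37 probes each, and the median SD over the probes of a member was 1.83 with BaitA, 2.00 with BaitB and 1.21 with BaitC. The arrays were raised at their own baits, where the mean was 8.34 ± 1.05 (SD over 17 probes) for BaitA, 8.57 ± 0.58 (14 probes) for BaitB and 7.53 ± 0.58 (15 probes) for BaitC. The file headers give 1 slide for BaitB, its first hybridisation, and BaitA, its later one, and a different slide, already hybridised before, for BaitC.

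Coordinates are those of the deposited files, whose arm lengths are those of Drosophila genome Release 5. Of the 67 members, 12 lay on 2L, 12 on 2R, 14 on 3L, 18 on 3R and 11 on X. Both subunits were present on each of these arms. Few members lay close to a bait: mRpL51 was 31.4 kb from BaitB and mRpL44 was 911 kb from BaitC, and no member lay within 1 Mb of BaitA. Just beyond that limit, mRpL44 was 1203 kb from BaitA and mRpS7 was 1901 kb from BaitB. Members within 1 Mb of a bait are given apart for that array and are left out of its summaries.

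mRpL51, a large subunit gene without a bacterial counterpart, had the highest value of any member in any array. Its transcribed span on 2L runs from 8516767 to 8517292 on the minus strand, with a single start site at 8517292. The ratio was 8.23 ± 0.37 (SD over 36 probes) with BaitB, against 0.77 ± 2.23 with BaitA and 0.72 ± 1.18 with BaitC. The BaitB array thus stood alone at this gene, and its probes there had the smallest SD of any member.

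The height of mRpL51 was shared by its surroundings. The probes 5 to 20 kb away averaged 7.83 with BaitB. The other 6 genes with a start site within 10 kb had BaitB values from 8.13 to 8.42, among them CG13090, whose start site lies 0.374 kb from that of mRpL51. Among the 18 other genes at 50 to 200% of its distance from BaitB the median was 7.88 ± 0.43 (SD over genes), and 15 of them were lower than mRpL51. Its excess over that median was 0.36, which is smaller than the SD over those genes.

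The authors' deposited tables paired mRpL51 with 4 BaitB peaks of FDR at most 0.05 and with none of BaitA or BaitC at that limit. The nearest to the start site, at 8517469 to 8517793 and 177 bp upstream of it, averaged 8.52 ± 0.38 over 6 probes. The BaitA array was at -1.18 ± 1.82 there and at 4.47 ± 0.66 in the mRpL51 peak at 8518854 to 8519353. The BaitA signal thus changed over about a kilobase while that of BaitB stayed level. The BaitB values were close to the mean of 8.57 at the bait itself, and whether the ratio could rise further was not tested.

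mRpL44 encodes a large subunit protein with a fold related to ribonuclease III. Its span on 3R runs from 1295282 to 1296300 on the minus strand, and its start site lies 0.48 kb from that of Snr1, which encodes a subunit of the Brahma chromatin remodelling complex. The ratio within 1 kb of the start site was 2.99 ± 1.77 (SD over 36 probes) with BaitA, -0.21 ± 3.12 with BaitB and 1.65 ± 1.19 with BaitC. The arrays of the 3R baits were thus the higher ones, though with probes within 5 kb they fell to 0.87 (BaitA) and 0.61 (BaitC).

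Ratios on 3R were higher near the bait, so mRpL44 was also read against genes at 50 to 200% of its distance. For BaitC, 151 of 167 such genes were lower, and their median was 0.47 ± 0.88 (SD over genes). For BaitA, 167 of 198 were lower, and their median was 1.84 ± 1.50. The excess of mRpL44 over the median was larger than 1 SD of those genes for BaitC and smaller than 1 SD for BaitA.

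**Figure D1:**
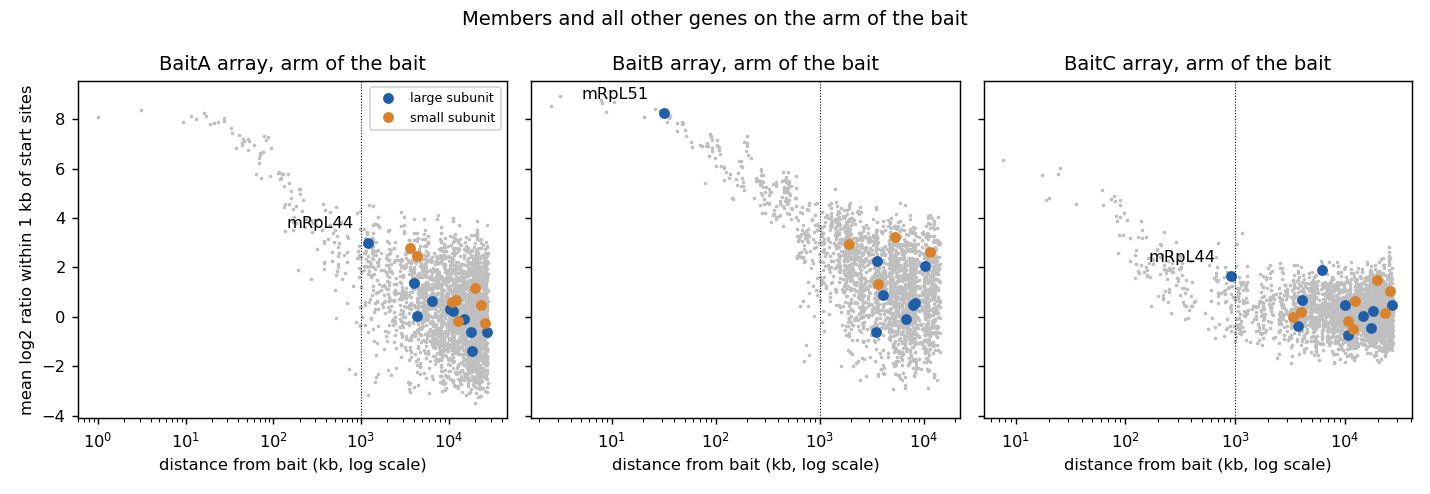
Mean log2 ratio within 1 kb of start sites (y axis) against distance from the bait in kb on a log scale (x axis) for genes on the arm of the bait; coloured points are large and small subunit members, grey points are other genes, and the dotted line marks 1 Mb. mRpL51 at 8.23 lies within the grey band of BaitB neighbours, and mRpL44 is the member nearest to BaitA and to BaitC.

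Away from the baits the members took values on both sides of the array median. With BaitA the median over 67 members was 0.38 with a range from -1.87 to 2.99, beside 0.35 over all 12134 genes of the tables more than 1 Mb from the bait. With BaitB it was 0.45 with a range from -3.08 to 3.75 over 66 members, beside 0.35. With BaitC it was 0.45 with a range from -1.45 to 2.03 over 66 members, beside 0.25. The SD over members was 1.35, 1.54 and 0.75, and that over all genes was 1.46, 1.51 and 0.76. The SE over members (SD divided by the square root of their number) was 0.17, 0.19 and 0.092. The gap to all genes was larger than this SE with BaitC and smaller with BaitA and BaitB. That SE is for a mean over genes of 1 array while the gaps are between medians, so it cannot decide whether they are real. None was tested.

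The arms differ in level, so each member was also set against the median of all genes on its arm. With BaitA 36 of 67 members were above it, where 49.5% of all genes were. The counts were 35 of 66 with BaitB (background 49.1%) and 36 of 66 with BaitC (background 49.5%). The median difference from the arm was 0.16, 0.12 and 0.13 log2 units. In the top 10% of their arm there were 7, 9 and 8 members, beside 9.32%, 8.77% and 9.31% of all genes. In the bottom 10% there were 4, 3 and 2, beside 10.1%, 10.2% and 10.1%.

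By arm, the median of the members was furthest from that of all genes on 2R with BaitA, at -0.40 ± 1.67 (SD over 12 members) against 0.58 ± 1.50. On X, members had medians of 0.05, -0.43 and 0.84 for BaitA, BaitB and BaitC, beside -0.39, -0.33 and 0.46 for all X genes. On 2L with BaitB, the arm of the bait, the 11 members beyond 1 Mb had a median of 1.33 and all genes 1.34. None of these gaps was tested.

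**Figure D2:**
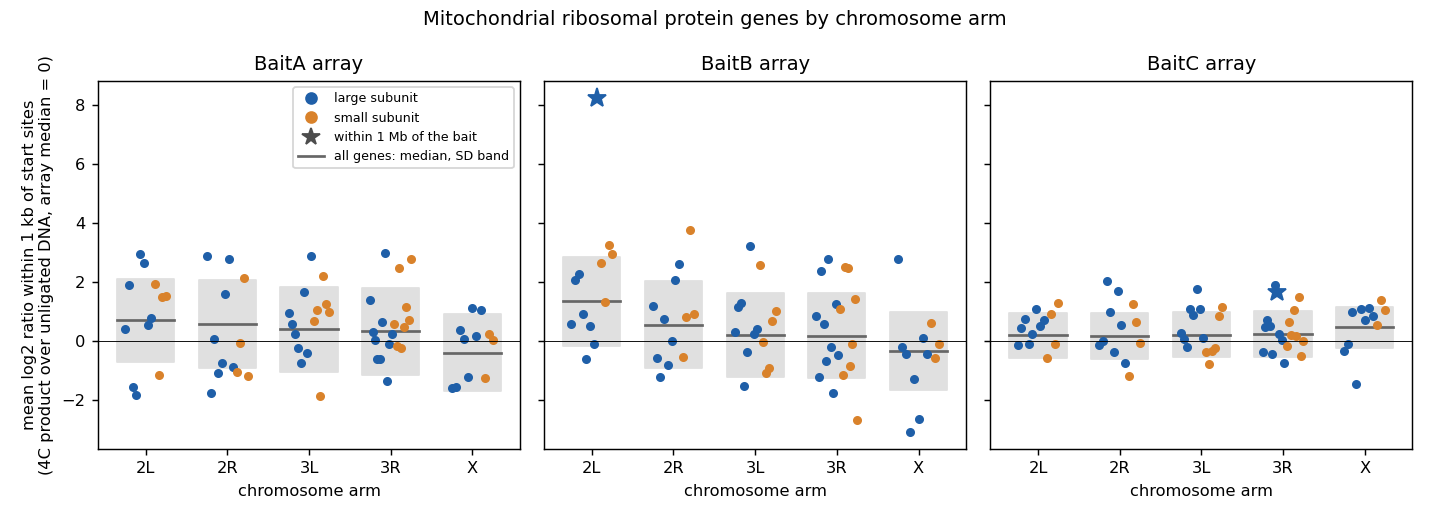
Mean log2 ratio within 1 kb of start sites (y axis) of the 67 members by chromosome arm (x axis), 1 panel for each array; points are genes coloured by subunit, stars mark members within 1 Mb of the bait, grey lines are medians of all genes beyond 1 Mb and bands are 1 SD over those genes. Members fall on both sides of the grey line on every arm, with mRpL51 alone above 8.

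The large and small subunit genes did not order the same way in the arrays. With BaitA the large subunit median was 0.24 ± 1.41 (SD over 42 genes) and the small subunit median 0.68 ± 1.26 (25 genes), and with BaitB they were 0.23 ± 1.47 and 0.82 ± 1.62. With BaitC the large subunit was the higher, at 0.46 ± 0.75 against 0.22 ± 0.76. Of the small subunit genes 17, 15 and 12 of 25 were above their arm's median, and of the large subunit genes 19 of 42, 20 of 41 and 24 of 41. The large minus small subunit difference was -0.44 ± 0.33 (SE over genes) with BaitA, -0.59 ± 0.40 with BaitB and 0.24 ± 0.19 with BaitC, untested, and with probes within 5 kb the last turned to -0.25. The split follows the gene names; in mammals the proteins named MRPS30 and MRPS18A sit in the large subunit.

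Members numbered as in bacteria (up to 36 for the large and 21 for the small subunit) were 39 of the 67. Their medians were 0.25 ± 1.39 (SD over genes), 0.60 ± 1.60 and 0.43 ± 0.71 for BaitA, BaitB and BaitC. The other 28, with higher numbers, given to proteins first known from mitochondria, had medians of 0.59 ± 1.30, 0.00 ± 1.48 (27 genes) and 0.51 ± 0.81 (27 genes). Neither group was the higher one throughout.

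The highest members differed from array to array. With BaitA they were mRpL44 (above), mRpL28 and mRpL46. mRpL28 (2L, start site 4974136), a counterpart of bacterial L28, was at 2.95 ± 2.20 (SD over 36 probes) there, at -0.60 ± 2.47 with BaitB and at 0.22 ± 1.15 with BaitC. mRpL46 (3L, start site 1777515), a gene without a bacterial counterpart, was at 2.88 ± 1.51, 0.40 ± 1.77 and 0.10 ± 1.23. For both genes the BaitA value alone lay in the top 10% of the arm, and the flanks 5 to 20 kb away were at 0.82 and 0.24 in that array. With probes within 5 kb the BaitA values were 0.27 for mRpL28 and 0.30 for mRpL46.

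With BaitB the highest members beyond 1 Mb were mRpS28, mRpS23 and mRpL36. mRpS28 (2R, start site 14502448) was at 3.75 ± 1.50 (SD over 36 probes), above 99.4% of 2R genes, and at 2.14 ± 2.25 with BaitA and 0.63 ± 1.38 with BaitC. mRpS23 (2L, start site 13834982) was at 3.24 ± 0.78, with 1.50 ± 0.84 and -0.10 ± 0.84 for BaitA and BaitC. It lies 5349 kb from BaitB, on an arm that was raised as a whole, and its percentile on 2L was 82.0. With probes within 5 kb the BaitB values were 1.83 for mRpS28 and 1.52 for mRpS23.

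mRpL36, the counterpart of the small bacterial protein L36, was high in more than 1 array. Its start site is at 8118138 on 3L, and its values were 1.67 ± 1.65 (SD over 36 probes) with BaitA, 3.23 ± 1.06 with BaitB and 1.74 ± 1.17 with BaitC. These were at the 79.5th, 99.0th and 98.3rd percentile of 3L genes. The flanks 5 to 20 kb away were at 0.31, 0.50 and 0.02, so the raised stretch was short, and with probes within 5 kb the BaitB value was -0.44 and the BaitC value 0.52.

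With BaitC the highest members beyond 1 Mb were mRpL41, mRpL37 and mRpL36. mRpL41 (2R, start site 11105069) was at 2.03 ± 0.93 (SD over 35 probes), above 99.1% of 2R genes, while it was at 0.06 ± 1.64 with BaitA and -1.20 ± 2.50 with BaitB. mRpL37 (3R, span 6606913 to 6609731), a large subunit gene without a bacterial counterpart, was at 1.90 ± 1.41 with BaitC, 2.78 ± 2.37 with BaitB and 0.65 ± 3.28 with BaitA. It lies 6517 kb from BaitA and 6224 kb from BaitC. Its BaitA probes had the largest SD of any member in any array. With probes within 5 kb the BaitC values were 0.55 for mRpL41 and 1.03 for mRpL37.

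The lowest members with BaitA were mRpS34, mRpL27 and mRpL34. mRpS34 (3L, start site 16341266) was at -1.87 ± 1.28 (SD over 36 probes) and was low elsewhere too, at -1.08 ± 2.29 with BaitB and -0.34 ± 1.21 with BaitC. mRpL27 (2L, start site 4459532), whose bacterial counterpart reaches into the peptidyl transferase centre, was at -1.82 ± 1.54, 0.90 ± 3.04 and -0.11 ± 1.50 for BaitA, BaitB and BaitC. mRpL34 (2R, start site 11986497) was at -1.76 ± 1.64, -0.56 ± 1.65 and 0.01 ± 1.32. All of them were below the median of their arm in each array, though with probes within 5 kb the BaitA value of mRpL27 became 0.28 and that of mRpL34 -0.57.

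With BaitB the lowest were mRpL3, mRpS9 and mRpL33. mRpL3 (X, start site 15655366), whose bacterial counterpart lies next to the peptidyl transferase centre, was at -3.08 ± 0.85 (SD over 36 probes) with BaitB and -1.45 ± 1.05 with BaitC, and at 0.05 ± 1.07 with BaitA. In the BaitB and BaitC arrays 0.1% of X genes were lower, and its BaitB value was -1.73 with probes within 2 kb and -0.81 within 5 kb. mRpS9 (3R, start site 3728354), a protein of the small subunit head in bacteria, was at -2.67 ± 1.18 with BaitB, 2.77 ± 1.19 with BaitA and 0.00 ± 1.04 with BaitC. For BaitA, 559 of 594 genes at 50 to 200% of its distance were lower. mRpL33 (X, start site 4216164) was at -2.65 ± 0.99 with BaitB, against 1.12 ± 2.44 and 0.71 ± 0.85 in the BaitA and BaitC arrays.

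With BaitC mRpL3 was again the lowest, followed by mRpS16 and mRpS31. mRpS16 (2R, start site 10060990) was at -1.20 ± 1.27 (SD over 36 probes), with -1.04 ± 2.65 for BaitA and -0.54 ± 2.82 for BaitB, and thus was below its arm's median in all 3. mRpS31 (3L, start site 15998389) was at -0.78 ± 1.34, with 1.05 ± 1.85 and -0.05 ± 1.40 for the other baits. Its BaitC value changed sign to 0.047 with probes within 5 kb, as did that of mRpL3, to 0.025, and that of mRpS16 became -0.18.

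**Figure D3:**
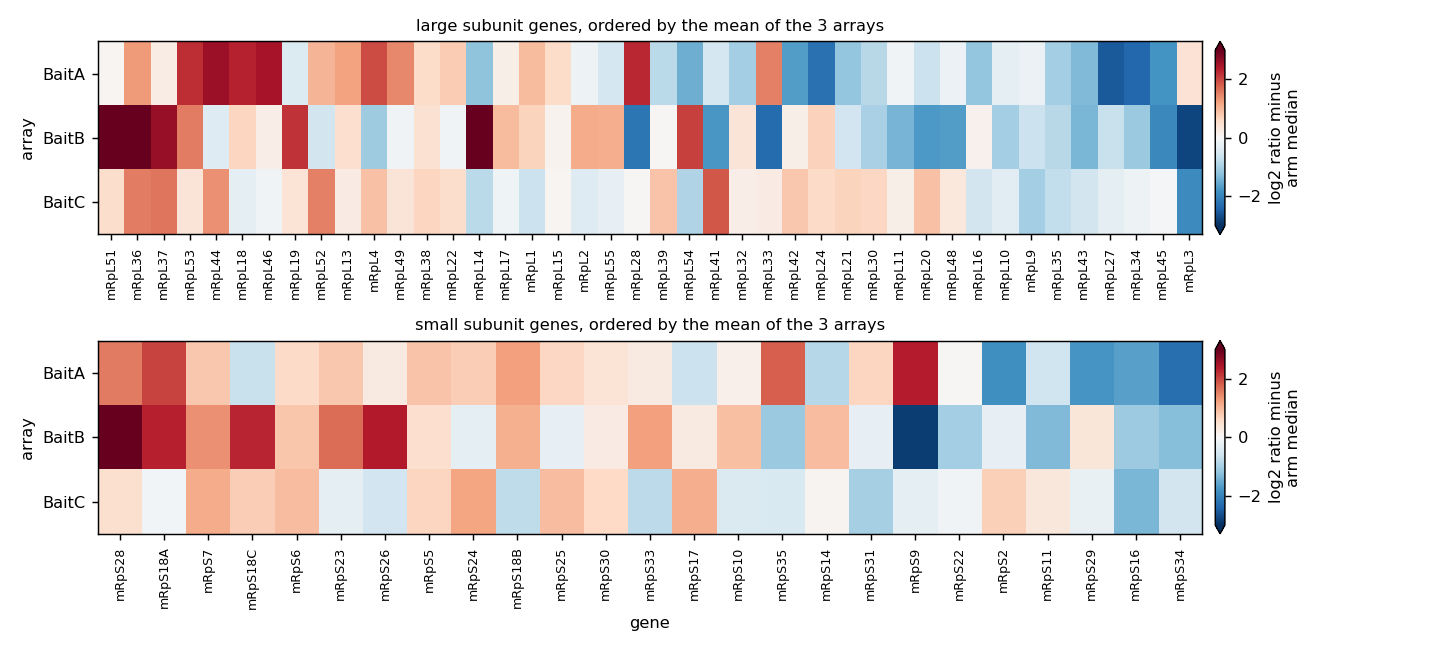
Log2 ratio minus the median of all genes on the arm (colour, cut at -3 and 3) for the large and small subunit members (x axis) in the 3 arrays (y axis), ordered by their mean. mRpL36, mRpL37 and mRpS28 are above the median in each array, mRpL27, mRpL34, mRpS16 and mRpS34 are below it in each, and many others, such as mRpS9, change side between arrays.

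Over the arrays, 11 of the 65 members that lie beyond 1 Mb of every bait were above the median of their arm in all 3, which is 16.9%, beside 15.4% of all genes. Those were mRpL13, mRpL15, mRpL36, mRpL37, mRpL38, mRpL53, mRpS5, mRpS6, mRpS7, mRpS28 and mRpS30. In no array were 9 members above it (13.8%, beside 16.9% of all genes): mRpL9, mRpL10, mRpL27, mRpL34, mRpL35, mRpL43, mRpL45, mRpS16 and mRpS34. No member was in the top 10%, or in the bottom 10%, in all 3 arrays, where 0.143% and 1.01% of all genes were.

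The closest pairs of members differed in their values. mRpL24, whose bacterial counterpart lies at the exit of the peptide tunnel, is 28.9 kb from mRpL28 on 2L. It was at -1.55 with BaitA where mRpL28 was at 2.95, and at 2.26 with BaitB where mRpL28 was at -0.60. mRpL3 and mRpS30 are 24.8 kb apart on X and were at 0.05 and 0.02 with BaitA, but at -3.08 and -0.09 with BaitB and at -1.45 and 1.06 with BaitC. Each pair thus lay close together on its arm and still took values on both sides of 0 in at least 1 array, within 1 kb of the start sites. With probes within 5 kb mRpL28 was at 0.27 with BaitA and 0.17 with BaitB, and mRpL3 at 0.025 with BaitC. Their partners mRpL24 and mRpS30 were not recomputed at that window. The SD over probes of mRpL24 was 1.92 with BaitA and 1.74 with BaitB. mRpL24 and mRpS2, 94.9 kb apart, had the same sign throughout, at -1.55 and -1.15 with BaitA, 2.26 and 1.33 with BaitB, and 0.76 and 0.91 with BaitC. A more distant pair, mRpL19 and mRpS18A, 111.7 kb apart on 3R, was at 2.36 and 2.50 with BaitB but at 0.02 and 2.46 with BaitA.

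The profile around the start sites was averaged over members beyond 1 Mb of the bait in 500 bp bins, aligned on the most upstream start site. Over all genes the highest bin lay just upstream of the start site in each array, at 0.46, 0.42 and 0.27 for BaitA, BaitB and BaitC. Over members, the 1 kb on either side averaged 0.45, 0.49 and 0.40, beside 0.36, 0.37 and 0.24 over all genes. The bins 5 to 10 kb away averaged 0.20, 0.23 and 0.15 over members, beside 0.19, 0.21 and 0.12. A rise towards the start site was thus seen over all genes as well. Gene by gene, 38 of 67, 37 of 66 and 42 of 66 members were above their own flank of 5 to 20 kb, beside 54.4%, 54.4% and 57.9% of all genes. The median gain over the flank was 0.27, 0.46 and 0.30, beside 0.18, 0.18 and 0.16 over all genes. The SE of the gain over members was 0.18, 0.18 and 0.10. It is an SE over genes of 1 array, so it cannot decide whether the gap to all genes is real, and that gap was not tested. With a flank of 2 to 10 kb the median gain over members was 0.070, 0.165 and 0.242. The lower and upper quartiles of that gain over members were -0.79 and 1.27, -0.64 and 1.45, and -0.31 and 0.84, so members lay on both sides of their flanks in each array.

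**Figure D4:**
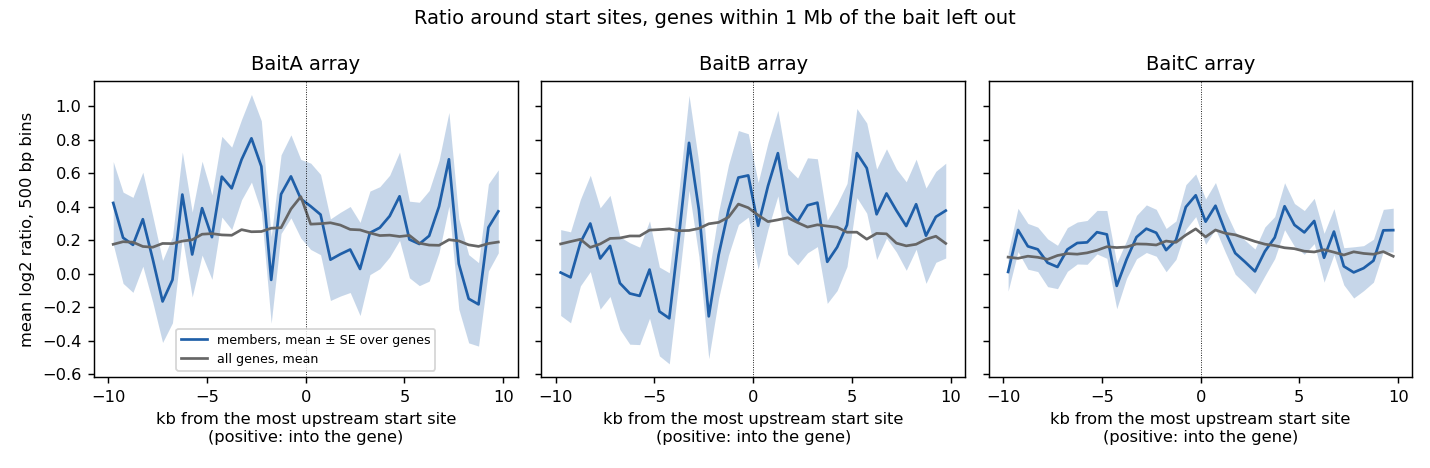
Mean log2 ratio in 500 bp bins (y axis) by distance in kb from the most upstream start site (x axis, positive into the gene), for members with a band of 1 SE over genes and for all genes, 1 panel for each array. The curve of all genes rises to 0.46, 0.42 and 0.27 just upstream of the start site. That of the members rests on far fewer genes and is more uneven. Its highest bins are 0.81 ± 0.26 (SE over genes) at -2.75 kb with BaitA, 0.78 ± 0.28 at -3.25 kb with BaitB and 0.47 ± 0.13 at -0.25 kb with BaitC.

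Peaks gave a second view, since the authors had called them on each array and set their FDR from shuffled data. With BaitA 12 of 67 members had a peak within 5 kb at FDR of at most 0.05, or 17.9%, beside 31.2% of all genes. The BaitB count was 19 of 66 (28.8%, beside 36.5%) and the BaitC count 16 of 66 (24.2%, beside 30.5%). Members were thus paired with peaks at a lower rate than the background for each bait, a description without a test. They are also short, with a median span of 0.711 kb against 1.715 kb for all genes. At FDR of at most 0.01 the counts were 0, 6 and 9, beside 2.58%, 13.9% and 16.6%, and at FDR of at most 0.2 they were 43, 44 and 31, beside 69.7%, 71.0% and 59.3%.

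Among genes with a span of at most 1.5 kb, a limit chosen after seeing the data, the shares were 26.2%, 30.0% and 26.2% for all genes. For the members under that limit they were 18.0% (11 of 61), 26.7% (16 of 60) and 23.3% (14 of 60). Pairing by the 1 kb around a start site does not use the span, but genes with several start sites have several such windows. Peaks overlapping that 1 kb were paired with 4, 6 and 7 members, or 5.97%, 9.09% and 10.6%, beside 10.6%, 11.8% and 10.1% of all genes. In percentage points the gap was thus widest with BaitA at FDR of at most 0.05. It was widest with BaitB at 0.01 and with BaitC at 0.2, so the order of the baits depended on the limit. Within 1 kb the BaitC share of members was not below that of all genes. None of the 11 X members had a BaitA peak, while 42.2% of X genes did, and 5 and 4 of them had a BaitB and a BaitC peak, beside 51.9% and 40.5%. On 2L, 2R, 3L and 3R a BaitA peak was paired with 2 of 12, 3 of 12, 3 of 14 and 4 of 18 members. The shares of all genes there were 38.4%, 36.6%, 24.8% and 17.2%. No background of short genes was computed by arm.

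**Figure D5:**
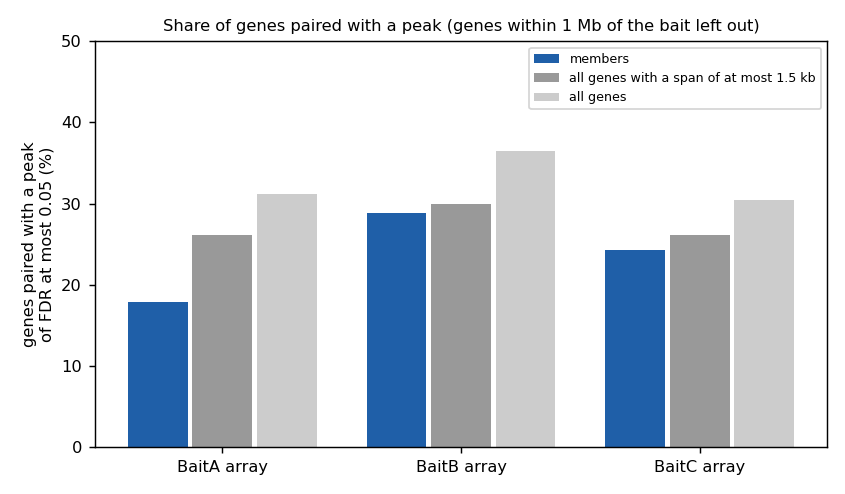
Share in percent (y axis, from 0) of genes with an assigned peak at FDR up to 0.05 for BaitA, BaitB and BaitC (x axis), for members, for all genes with a span of at most 1.5 kb and for all genes, with genes within 1 Mb of the bait left out. The members are at 17.9, 28.8 and 24.2%, the lowest bar of each group.

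Counted over all 67 members, 30 had a peak of no bait, 27 of 1, 8 of 2 and 2 of all 3 baits. Without the pair within 1 Mb of a bait, 30 of 65 had none, beside 32.8% of all genes. The pair with peaks of all 3 baits were mRpL44 and mRpL37, and mRpL37 is the 1 of 65 members beyond 1 Mb of every bait, beside 5.19% of all genes. Both genes lie on 3R, and for both the peaks were inside the transcribed span within 1 kb of the start site. mRpL36 had peaks of BaitA and BaitC and missed the limit for BaitB.

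At mRpL44 the peaks of the 3 baits covered the same short stretch. The BaitA peak ran from 1295816 to 1296120, the BaitB peak from 1295761 to 1295955 and the BaitC peak from 1295816 to 1296070, with overlaps of 140 to 255 bp. Over the BaitB peak the arrays averaged 5.10 ± 0.28 (BaitA), 5.22 ± 0.25 (BaitB) and 2.98 ± 1.76 (BaitC; SD over 4 probes). The BaitB array was thus raised at a piece of mRpL44, although its mean within 1 kb of the start site was -0.21, and BaitB lies on another chromosome. The BaitA and BaitB arrays came from 1 slide, and the part of that slide in their overlap was not tested. The peaks were paired also with the neighbours Snr1, CG12162 and RpL35A, the last a gene of the cytosolic ribosome.

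At mRpL37 the BaitA peak (6608813 to 6609178) overlapped the BaitB peak (6608918 to 6609577) by 261 bp and the BaitC peak (6608638 to 6608868) by 56 bp, and the last 2 did not overlap each other. The BaitA peak averaged 5.61 ± 0.95 over 7 probes, the BaitB peak 4.88 ± 0.81 over 12 and the BaitC peak 4.00 ± 1.58 over 5, each in its own array. In the BaitC interval the BaitA array was at 5.03 ± 0.94. Here too the part of the slide shared by BaitA and BaitB in their overlap was not tested.

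mRpL54 (2R, start site 16948417) had a BaitA and a BaitB peak over the identical stretch from 16945402 to 16945771, 2646 bp from its start site. The arrays averaged 5.34 ± 0.39 (BaitA), 5.68 ± 0.26 (BaitB) and 1.32 ± 1.74 (BaitC) over its 7 probes. At the start site itself mRpL54 was at -0.88 ± 1.09, 2.60 ± 0.95 and -0.73 ± 1.90. Both arrays came from 1 slide, and the part of the shared slide in this overlap was not tested.

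Other members had peaks of different baits side by side. At mRpS28 the highest BaitB peak (14502024 to 14502283) lay inside the span, with 6.24 ± 0.45 over 5 probes, and a BaitA peak (14503129 to 14503668) lay 681 bp upstream with 5.15 ± 0.32 over 10 probes. At mRpL36 the BaitC peak (8118936 to 8119200) averaged 4.00 ± 0.51, with the BaitB array at 4.17 ± 0.32 and the BaitA array at -1.05 ± 0.65. The BaitA peak of mRpL36, 1248 bp from the start site at 8119386 to 8119600, averaged 5.46 ± 0.10 over 4 probes while the BaitC array was at -0.59 ± 0.97. At both genes the peaks of different baits did not overlap. Over the BaitC peak of mRpL36 the BaitB array was as high as that of BaitC in log2 units. The spread of the arrays differed, with an SD over all probes of 2.50 for BaitB and 1.50 for BaitC.

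A feature the members share is a close neighbour: 40 of 67, or 59.7%, had a start site of another gene within 1 kb, beside 25.0% of all genes in the tables. The windows of such a pair share probes, so the value of the member is in part that of the neighbour. Examples are mRpL53 with AGO1, an Argonaute gene, mRpL39 with Prosbeta2, a proteasome gene, mRpL21 with rept, a gene of a chromatin-linked ATPase, and mRpS29, which encodes a GTP-binding protein related to DAP3, with rad50, a DNA repair gene. With BaitC the 39 members with such a neighbour had a median of 0.63 ± 0.73 (SD over genes) and the 27 without one -0.10 ± 0.67, and 26 of 39 against 10 of 27 were above their arm's median. Over all genes the corresponding shares were 51.7% and 48.7%. With BaitB 23 of 39 and 12 of 27 were above it, beside 51.2% and 48.4%, and with BaitA 21 of 40 and 15 of 27, beside 49.1% and 49.6%. With BaitB the medians were 0.60 ± 1.34 and -0.09 ± 1.76, and with BaitA 0.39 ± 1.39 and 0.38 ± 1.31. None of these gaps was tested.

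Other genes of mitochondrial gene expression were listed alongside, and 12 of the listed names were in the tables. They include tko and bonsai, which encode ribosomal proteins S12 and S15 of the mitochondrial small subunit, EfTuM, a translation factor, gatA and Aats-ala-m, which act in the charging of transfer RNAs, the transcription factors TFAM, mtTFB1, mtTFB2 and mTTF, the RNA-binding protein bsf, and tam and mtSSB, which copy and bind mitochondrial DNA. In each array 6 of the 12 were above the median of their arm. The medians were 0.48 ± 1.10 (SD over genes), 0.26 ± 1.51 and 0.33 ± 0.80 for BaitA, BaitB and BaitC. Peaks of FDR at most 0.05 were paired with 1, 4 and 3 of them, beside 31.2%, 36.5% and 30.5% of all genes, and mTTF had peaks of all 3 baits, as 5.19% of all genes did.

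tko was at 1.50, -2.07 and 0.03 for BaitA, BaitB and BaitC, and bonsai at 1.75, 0.26 and -0.77. mtSSB stood at 3.19 with BaitA, above 95.2% of 3R genes, and at -1.26 with BaitB. tam was low in each array, at -0.56, -0.56 and -1.06. For comparison, the cytosolic ribosomal protein genes had medians of 0.95 ± 1.57 (SD over 77 genes), 0.30 ± 1.69 (75 genes) and 0.23 ± 0.66 (76 genes), higher than the mitochondrial set with BaitA and lower with the other baits, without a test.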

How the data were processed

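The deposited probe values are log2 ratios of the 2 array channels. Their log base and direction are not written in the deposited table: base 2 was assumed, and the ratios are raised at each bait, so the 4C channel is the numerator. How the authors centred the log2 ratios is not stated; the deposited medians of -0.16, -0.14 and -0.02 (BaitA, BaitB, BaitC) were subtracted. NimbleScan made the peak lists, 1 per array, per the file headers; the peak score is on the log2 scale, and the FDR deposited by the authors serves as a q-value and was used as a filter only. The authors' reference height for scores equals the arm's mean plus 6 SD of the log2 values. The build is not named; the arm lengths, such as 23011544 bp for 2L, are those of Release 5, and Release 6 RefSeq symbols matched all 67 members by accession.

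A gene was taken by name, with start sites from start-site entries and the 5′ ends of transcripts; 12266 genes had at least 5 probes within 1 kb. Arm medians and percentiles are over all such genes of the arm. Flanks needed at least 20 probes. Named genes are the members within 1 Mb of a bait, the 3 highest and 3 lowest of each array beyond it, and members with peaks of all 3 baits or in the top or bottom 10% of their arm throughout; mRpL19, mRpL24, mRpL54, mRpS7, mRpS18A and mRpS30 and the examples of neighbours were chosen after their values were seen. The members and lists were chosen with earlier results of these data known. The calculation was tested on simulated data. Each array held 2157868 probes; 4C products were amplified by PCR, per the labels' protocols, so a ratio is not a contact frequency. Python 3.11.15, numpy 2.4.6 and pandas 2.3.3 were used. A planned search of promoter sequences was not run.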

Additional observations from a re-analysis of the deposited data

Results flagged for a closer look

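The difference between the large and the small subunit median, taken after subtracting the arm median, was -0.58 with BaitA, -0.47 with BaitB and 0.27 with BaitC. The SE over genes was 0.33, 0.36 and 0.19. The difference was flagged because its sign is opposite in BaitC, but that sign depended on the window. Before the arm median was subtracted, the BaitC difference was 0.24, and it became 0.020 with probes within 2 kb and -0.25 within 5 kb. With 1 array for each bait the difference between arrays was not tested.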

How the results depend on the processing

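No paired analysis was possible because each bait had 1 array, and for the same reason no array could be left out. Of 123 recomputed summaries 81 moved by less than their error (1 SE over genes, or 1.5 times for a count). Of 408 values of single named genes 383 moved by less than 1 SD over probes, 21 by more and 4 were counted as changing sign. Taking the most upstream start site left all values as they were, which enlarges both the 81 and the 383. Keeping members within 1 Mb likewise left the BaitA summaries unchanged. The SD over probes is a wide limit, up to 3.28 (mRpL37, BaitA), and some values changed sign within it. Values are for BaitA, BaitB and BaitC where 3 are given. The median over members became 0.14 (BaitA) and 0.26 (BaitC) with probes within 500 bp, 0.21 (BaitA) within 2 kb, 0.17 (BaitC) within 5 kb, 0.34 (BaitC) by the median over probes, and 0.60 (BaitA) and 0.94 (BaitB) when centred on arms without the bait. It was 0.16, 0.12 and 0.13 after subtracting the arm median. Chosen after seeing the data, the median of genes within 500 kb left 0.15, 0.048 and 0.22, and leaving out the bait's arm gave 0.11 (BaitB) and 0.54 (BaitC). The large minus small subunit difference was -0.86 (BaitA) at 500 bp, -0.13 (BaitB) and 0.020 (BaitC) at 2 kb, -0.25 (BaitC) at 5 kb, and -1.47 (BaitA) and 0.025 (BaitC) by the median over probes, so its sign with BaitC depended on the window. The other mitochondrial expression genes had medians of 0.87 (BaitA) at 500 bp, 0.10 (BaitA) at 5 kb, 0.068 (BaitA) and -0.66 (BaitB) by the median over probes, 0.75 (BaitB) on arms without the bait, and -0.086 (BaitA) and 0.083 (BaitC) after the arm median. Members with a peak numbered 0, 6 and 9 at FDR of at most 0.01, 43, 44 and 31 at 0.2, and 4, 6 and 7 within 1 kb. The gain over the flank was 0.070 (BaitA) and 0.165 (BaitB) with a flank of 2 to 10 kb. Members near the bait were 0 within 500 kb for BaitC, and 1 (BaitA) and 2 (BaitB) within 2 Mb. The 21 were at windows of 2 or 5 kb, all closer to 0, or after another centring, where mRpL51 went from 8.23 to 2.69 (BaitB, genes within 500 kb). The 4 counted as changing sign were all within 5 kb. They were mRpL27 to 0.28 (BaitA), mRpL36 to -0.44 (BaitB), mRpL3 to 0.025 (BaitC) and mRpS31 to 0.047 (BaitC). Among the 383, some changed sign there too, such as mRpL34 (-0.56 to 0.83) and mRpL41 (-1.20 to 0.41) with BaitB. Others did so at 500 bp, such as mRpL37 (0.65 to -0.49) with BaitA. The cause of these shifts was not tested.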

Other observations

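The 290 probes of the mitochondrial genome, which encodes the ribosomal RNAs that these proteins bind, averaged -0.34 ± 2.02 with BaitA, 0.07 ± 2.05 with BaitB and -0.30 ± 1.73 with BaitC (SDs over probes).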
